A study of Mus musculus and Homo sapiens with 8 samples.

Results

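Mast cell proteases and the high-affinity IgE receptor were followed through loss of ANP32B, a nuclear histone chaperone, in a human leukemia line and in mouse blood stem and progenitor cells. The set holds 10 human genes: the tryptases TPSAB1, TPSB2 and TPSD1, the carboxypeptidase CPA3, the IgE receptor chains FCER1A, MS4A2 and FCER1G, the granule proteoglycan core SRGN, the transcription factor MITF and the surface enzyme ENPP3. They were chosen by name from a known cell program after the fold changes of the KU812 experiment had been seen, so their KU812 values are a description. Where a member's place in the fit across all KU812 genes is given, it describes that fit and is no independent test of the member. All 10 have a row among the 20296 genes of the KU812 tables, and all 10 passed the filter on low counts. Of their mouse counterparts, 6 have a row among the 17097 genes of the LSK tables, namely Cpa3, Ms4a2, Fcer1a, Fcer1g, Srgn and Mitf, and all 6 passed the filter. Tpsab1, Tpsb2 and Enpp3 have no row there, and every gene listed sums to at least 10 counts over its 4 libraries. Tpsd1, the human symbol in mouse spelling, has no row either, and the GENCODE M21 mouse annotation holds no gene of that name.

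RNA sequencing covered 8 libraries. KU812, an established chronic myelogenous leukemia line with basophil features, carried a short hairpin RNA against ANP32B (shANP32B, n = 2) or a control hairpin (shNC, n = 2). LSK cells, the lineage-negative, Sca-1-positive, c-Kit-positive fraction of bone marrow that holds stem cells and multipotent progenitors, came from C57BL/6 mice that lacked Anp32b (KO, n = 2) or were wild type (WT, n = 2). The labels name 1 hairpin against ANP32B and 1 line, give no age or pooling of the mice, and do not say whether libraries of a group came from separate cultures or animals, so the spread behind each p-value may be technical.

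Mast cells and basophils store proteases in granules and carry the receptor that binds IgE. In the granule, tryptase and carboxypeptidase A3 are held on serglycin, whose long sulfated sugar chains bind them. In the receptor, the alpha chain binds IgE, the beta chain amplifies the signal and the gamma chain, shared with other Fc receptors, passes it on through the kinases LYN and SYK. KIT signalling and the factors GATA2 and MITF are known to drive this program, and KU812 is used as a model of immature basophils.

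The libraries held 24416691 to 28209409 counts in KU812 cells and 10549358 to 15683480 in LSK cells, in which 3 counts stand for 0.106 to 0.123 and 0.191 to 0.284 CPM, the counts scaled to a common library size. The members took 0.338% and 0.355% of all counts in shANP32B, against 0.274% and 0.277% in the shNC libraries. ANP32B stood at 40.4 and 38.2 CPM in shANP32B, against 250.2 and 286 CPM in shNC. Anp32b stood at 201 and 249 CPM in the KO libraries, against 794 and 730.4 CPM in the WT libraries. The part of the gene that was deleted was not described in the sources used here, and the counts left in KO libraries do not show it. KU812 cells read GATA2 (1390 and 1221 CPM in shANP32B, 1407 and 1176 in shNC) and HDC, which makes histamine (1218 and 1132 in shANP32B, 1256 and 1092 in shNC). They also read the fetal globin gene HBG2 (2331 and 2524 in shANP32B, 3206 and 3754 in shNC), an erythroid gene, while CMA1, the mast cell chymase, and MRGPRX2, a mast cell receptor, have no row. LSK cells read Kit (399 and 355 CPM in KO, 335 and 372 in WT), Ly6a, which encodes Sca-1, and Flt3. Replicates were least alike in the WT pair, where the chi-square of their counts per degree of freedom was 47.7, while it was 7.70 in the KO pair.

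In KU812 cells with ANP32B knocked down, the granule proteases stood 2.08-fold to 2.78-fold higher, serglycin stood 3.69-fold lower, and the receptor chains, MITF and ENPP3 differed by less. Of the 10 members, 4 were higher and 1 was lower past an adjusted p of 0.05 in the edgeR quasi-likelihood fit. Of all 16529 genes tested, 16.6% passed that threshold, 7.53% higher and 9.06% lower. Since the members were picked with this comparison known, nothing is read from that count. Their median log2 fold change was 0.42, against 0.004 over all genes tested. In bulk samples, a change in the number of cells of a type and a change in RNA per cell cannot be told apart.

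TPSAB1, which encodes alpha and beta tryptase, the main serine protease of mast cell granules, was read at 365 and 377 CPM in shANP32B, against 165 and 154 CPM in shNC. TPSB2, which encodes beta tryptase, was read at 325 and 324 CPM in shANP32B, against 138 and 134 CPM in shNC. TPSD1, which encodes the shorter delta tryptase, was read at 69.9 and 54.1 CPM in shANP32B, against 25.6 and 19.0 CPM in shNC. In each of the 3 genes both shANP32B libraries lay above both shNC libraries. The log2 fold changes were 1.21 (SE 0.10), 1.26 (SE 0.10) and 1.47 (SE 0.17), which are 2.32-fold, 2.39-fold and 2.78-fold higher levels.

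The tryptase genes are near-identical copies, and the sources used here do not say how reads that fit more than 1 copy were counted. Summed before the fit, the 3 copies held 19680 and 18696 counts in shANP32B, against 9180 and 7546 in the shNC libraries. The sum averaged 757 ± 3.65 CPM in shANP32B and 318 ± 15.1 CPM in shNC (SD, n = 2 each), which gives a log2 fold change of 1.25 (SE 0.10). The share that each copy took of that sum is given next. TPSAB1 took 48.0% and 49.9% of it in shANP32B, against 50.3% and 50.3% in shNC. TPSB2 took 42.8% and 42.9% in shANP32B, against 41.9% and 43.5% in shNC, and TPSD1 took 9.21% and 7.17% in shANP32B, against 7.80% and 6.18% in shNC. TPSG1, the membrane-anchored gamma tryptase, which is no member, was read at 152 and 131 CPM in shANP32B, against 142 and 110 CPM in shNC, so the groups overlapped there (log2 fold change 0.17, SE 0.14, adjusted p = 0.446, edgeR).

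CPA3 encodes mast cell carboxypeptidase A3, a zinc protease that trims peptides from their carboxyl end and is stored with tryptase. It was read at 1064 and 1151 CPM in shANP32B, against 530.1 and 532 CPM in shNC. The mean was 1107 ± 61.7 CPM in shANP32B and 531 ± 1.498 CPM in shNC (SD, n = 2 each). The log2 fold change came to 1.06 (SE 0.09), a 2.08-fold higher level, and it ran from 0.99 to 1.11 when each library was left out in turn. The difference between its change and those of the tryptases was not tested.

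SRGN, the serglycin core on which those proteases are held, stood on the other side. It was read at 171 and 186 CPM in shANP32B, against 588 and 726 CPM in shNC. The log2 fold change came to -1.88 (SE 0.12), a 3.69-fold lower level, and it was the widest separation among the members. In counts the shANP32B libraries held 4424 and 4602 reads, against 16427 and 17843 in shNC.

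The receptor chains were all slightly higher and none passed the threshold. FCER1A, the IgE-binding alpha chain, was read at 708 and 788 CPM in shANP32B, against 594 and 672 CPM in shNC. Its log2 fold change came to 0.24 (SE 0.10), and the nearest libraries of the groups lay closer together than the pair within either group. MS4A2, the beta chain, was read at 144 and 126 CPM in shANP32B, against 124 and 76.3 CPM in shNC, which gives a log2 fold change of 0.43 (SE 0.18). The shNC libraries of MS4A2 differed so much that the value was 0.82 without the first of them and past the threshold, and 0.11 without the second. FCER1G, the shared gamma chain, was read at 8.45 and 6.70 CPM in shANP32B, against 5.26 and 6.06 CPM in shNC, which gives a log2 fold change of 0.42 (SE 0.26). It rested on 219 and 166 counts in shANP32B and 147 and 149 in shNC, the smallest counts of the set.

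MITF, a basic helix-loop-helix factor of mast cells and melanocytes, did not separate the groups. It was read at 37.2 and 41.4 CPM in shANP32B, against 37.7 and 35.0 CPM in shNC, which gives a log2 fold change of 0.11 (SE 0.14) and a 95% interval from -0.19 to 0.41. ENPP3, the ectonucleotidase known as CD203c that marks basophils and mast cells, was read at 415 and 441 CPM in shANP32B, against 555 and 499 CPM in shNC. Its log2 fold change came to -0.30 (SE 0.10). It missed the threshold here, and passed it with DESeq2 and with limma-voom. Of the 10 members, 7 had both shANP32B libraries above both shNC libraries, where 29.5% of all genes tested did, and SRGN and ENPP3 had both below, where 28.9% did.

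**Figure D1:**
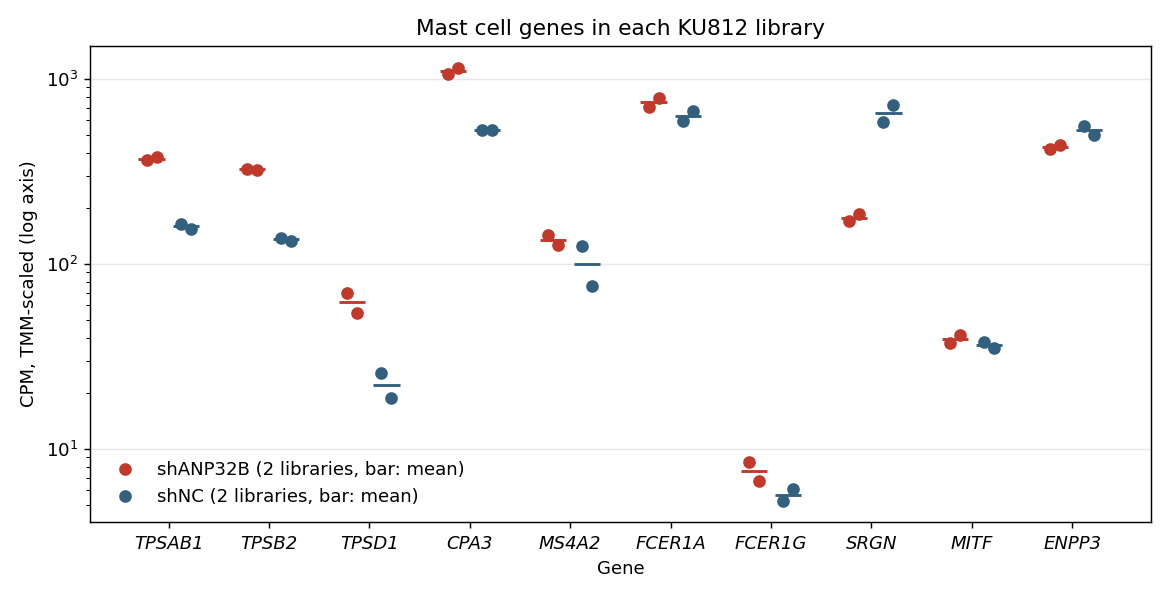
CPM (log y axis) of the 10 members (x axis), with each shANP32B library (red, left) and each shNC library (blue, right) as a point and the group mean as a bar. The tryptases and CPA3 stand higher in shANP32B, SRGN stands lower, and only MITF overlaps between the groups.

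Genes around these members, grouped by role, were counted in the same comparison. The lists were chosen with earlier results of these data known, so their shares are a description and no test. Of 21 genes that carry the signal of the IgE receptor, 6 rose and 1 fell, 33.3% of the list against 16.6% of all genes tested, with a median log2 fold change of 0.20. PLCG2, a phospholipase downstream of the receptor, rose to 57.5 and 57.5 CPM in shANP32B, against 39.1 and 32.5 CPM in shNC, a log2 fold change of 0.68 (SE 0.14, adjusted p = 0.0046, edgeR quasi-likelihood test). The protein kinase C genes PRKCD and PRKCB rose by log2 fold changes of 0.52 and 0.38, and GAB2, an adaptor of FYN signalling, fell by 0.57 on the log2 scale. The kinases that act first after the receptor, LYN and SYK, stood at -0.15 and -0.10, and BTK at 0.20, none past the threshold. Leaving out 1 library at a time gave 2 to 9 genes that rose and 0 to 2 that fell. GAB2 was lost without the second shANP32B library, PRKCD without the first, and PRKCB without either of them.

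Of 15 tested genes that restrain that signal, 3 rose and 1 fell (26.7%, median 0.12). With 1 library left out, 2 to 4 rose and 1 to 4 fell, and the total was 8 without the second shNC library. SIGLEC6, an inhibitory lectin of mast cells and basophils, rose to 881 and 975 CPM in shANP32B, against 500.1 and 463 CPM in shNC (log2 fold change 0.95, SE 0.10, adjusted p = 3.93e-05, edgeR quasi-likelihood test). DOK2, an adaptor that dampens kinase signals, rose by 0.67 and CSK, the kinase that restrains SRC family kinases, by 0.50 on the log2 scale, and the call of CSK was lost without the first shANP32B library. FCGR2B, the inhibitory IgG receptor, fell to 23.0 and 16.2 CPM in shANP32B, against 50.0 and 33.2 CPM in shNC (-1.09, SE 0.21). Of the 4 tested partners or relatives of FCER1G, 1 rose, namely TYROBP, an adaptor of the same kind (0.64, SE 0.20), and that call was lost without either shANP32B library or the first shNC library. FCGR2A stood at -0.32, not past the threshold. Without the second shNC library 3 of that list were called.

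The granule held changes in both directions. Of 14 tested granule and lysosomal proteases and their inhibitors, 4 rose and 3 fell (50%, median 0.26). CTSD, a lysosomal aspartic protease, rose to 522 and 552 CPM in shANP32B, against 289.8 and 311 CPM in shNC (log2 fold change 0.84, SE 0.10). CTSC, which activates granule serine proteases by trimming their ends, rose by 0.50 (SE 0.11), a call lost without the second shANP32B library. CST3, which encodes the secreted protease inhibitor cystatin C, rose by 0.65, while CST7, which encodes the leukocyte cystatin F, fell by 1.10 and CTSZ, a lysosomal carboxypeptidase, by 0.88 on the log2 scale. Of 20 tested genes of degranulation and the granule membrane, 4 rose and 3 fell (35%, median 0.19). CD63, a granule membrane tetraspanin that reaches the surface on degranulation, rose to 324 and 356 CPM in shANP32B, against 157 and 199 CPM in shNC (0.93, SE 0.12), and LAMP1, a lysosomal membrane protein, rose by 0.79. RAB27A, a small GTPase of granule docking, fell by 1.14 and HPS4, a factor of lysosome-related organelles, by 0.88 on the log2 scale. With 1 library left out, 2 to 5 of the proteases and inhibitors rose and 2 to 3 fell, and 3 to 7 of the degranulation genes rose and 2 to 3 fell.

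Of 24 tested genes that build the sugar chains of serglycin, 0 rose and 3 fell, 12.5% of the list, near the 16.6% of all genes tested, with a median log2 fold change of 0.07. CHST11, a chondroitin sulfotransferase, fell to 76.5 and 79.4 CPM in shANP32B, against 140.1 and 113 CPM in shNC (-0.70, SE 0.13). PAPSS2, which makes the sulfate donor, fell by 1.87 on the log2 scale at levels of 1.29 to 6.37 CPM, and FAM20B, a xylose kinase of chain assembly, by 0.35, a call lost without either shANP32B library and when libraries were scaled by their totals only. NDST2, the sulfotransferase of mast cell heparin, stood at 0.34, not past the threshold. With 1 library left out, 0 to 2 of these genes rose and 2 to 5 fell, and the total was 7 without the second shNC library.

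Of 17 tested transcription factors of mast cells and basophils, 1 rose and 3 fell (23.5%, median -0.05). CEBPA, a myeloid factor that favours basophils over mast cells in mice, fell to 5.36 and 4.36 CPM in shANP32B, against 18.4 and 16.5 CPM in shNC (-1.84, SE 0.22, adjusted p = 1.31e-04, edgeR quasi-likelihood test). STAT5B, a signal transducer of cytokine receptors, fell by 0.55, and CEBPB, at 6.25 and 7.10 CPM in shANP32B against 12.4 and 10.6 CPM in shNC, by 0.79 on the log2 scale, a call lost without either shANP32B library or the first shNC library. TFEC, a relative of MITF, rose to 64.8 and 64.5 CPM in shANP32B, against 46.7 and 37.7 CPM in shNC (0.62, SE 0.14), and TFE3, another relative, stood at 0.35, not past the threshold. With 1 library left out, 1 to 2 of the factors rose and 2 to 6 fell. GATA2 and GATA1 stood at 0.015 and 0.016, neither past the threshold.

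**Figure D2:**
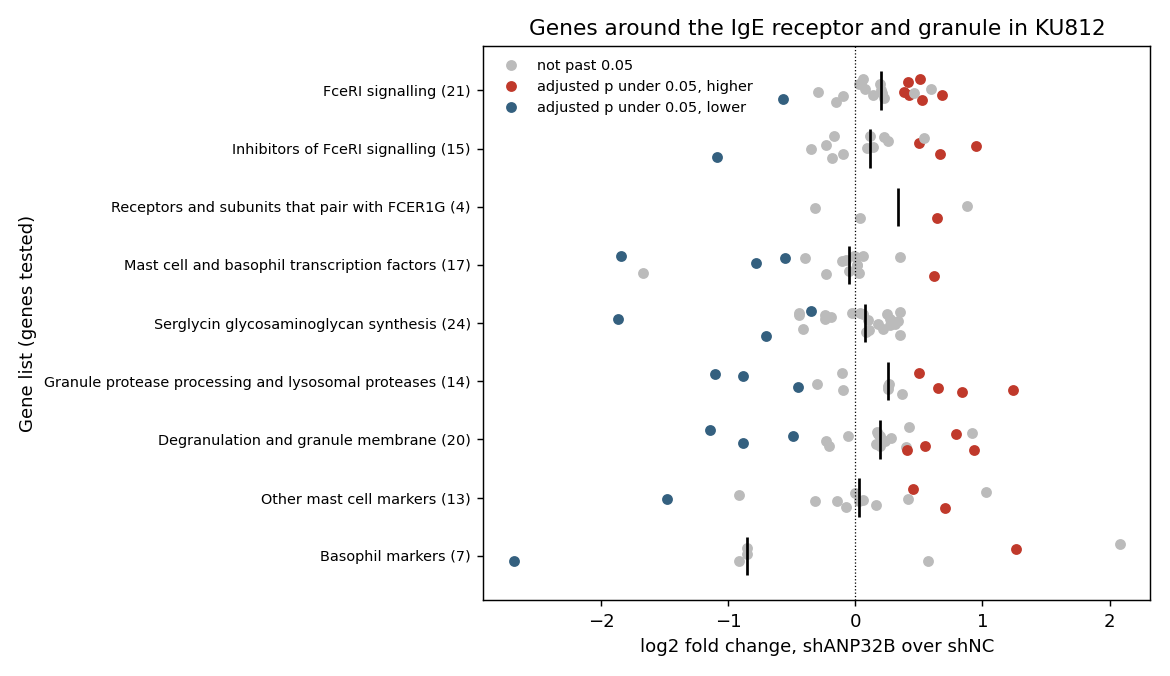
Log2 fold change (x axis, shANP32B over shNC) of each tested gene in 9 lists (rows), with red and blue points past an adjusted p of 0.05 and a bar at the list median. Most lists hold genes on both sides, and the sugar chain list has 0 red points.

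Among 13 other tested mast cell markers, 2 rose and 1 fell (23.1%, median 0.03), and 1 to 3 rose and 1 to 2 fell with 1 library left out. Summed, these markers were lower, at 3871 to 3926 CPM in shANP32B against 4676 to 5117 CPM in shNC. SLC18A2, which loads histamine into granules, rose by 0.71 and IL1RL1, the interleukin-33 receptor, by 0.45, the second call lost without the second shANP32B library. PRG2, major basic protein of eosinophils and basophils, fell by 1.48 on the log2 scale. Its mean was 587.5 CPM in shANP32B and 1641 CPM in shNC. KIT stood at -0.32 and HDC at 0.001, neither past the threshold. Of 7 tested basophil markers, 1 rose and 1 fell (28.6%, median -0.85), while with 1 library left out 2 to 3 rose and 1 to 2 fell. Summed, the listed basophil markers went the other way from that median, at 240.1 to 334.5 CPM in shANP32B against 155 to 226.1 CPM in shNC. LTC4S, leukotriene C4 synthase, rose to 138 and 157 CPM in shANP32B, against 53.4 and 69.8 CPM in shNC, and CLC, the Charcot-Leyden crystal protein, fell to 3.97 and 6.13 CPM in shANP32B, against 29.8 and 35.2 CPM in shNC. Of 12 erythroid markers 7 fell and 0 rose (58.3%, median -0.65), where 16.6% of all genes tested were called. With 1 library left out, 5 to 8 of them fell and 0 rose. Their summed level was 2937 to 3130 CPM in shANP32B, against 4044 to 4704 CPM in shNC. Of 9 tested megakaryocyte markers 2 rose and 1 fell (33.3%, median 0.26), and 1 to 4 rose and 1 to 2 fell with 1 library left out. That list summed to 2533 to 2702 CPM in shANP32B and 2049 to 2330 CPM in shNC. Of 6 tested neutrophil markers 3 rose and 0 fell (50%, median 1.35), and 2 to 3 rose and 0 to 1 fell with 1 library left out. That list summed to 19.7 to 21.7 CPM in shANP32B and 8.83 to 10.5 CPM in shNC, while ELANE, MPO, PRTN3 and MMP8 have no row. The part of these marker lists in the members' values was not tested.

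The mouse genes allow their start sites to be shown. Of the 10 symbols in mouse spelling, 7 have an entry in the RefSeq promoter table of build GRCm38.p6. The 250 bases before each start were searched on both strands for AGATAA, a core of the letters that GATA factors read. These 7 genes have 10 entries, since Mitf and Srgn have several starts. AGATAA was found in 3 of the 10 entries, those of Cpa3, Fcer1a and Ms4a2, and in 9.99% of all 32851 promoters of the same length. These 3 are printed because they hold it, with AGATAA or its complement TTATCT in capitals. No promoter of the human build was used here.

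Cpa3, chr3:20242182-20242431, minus strand: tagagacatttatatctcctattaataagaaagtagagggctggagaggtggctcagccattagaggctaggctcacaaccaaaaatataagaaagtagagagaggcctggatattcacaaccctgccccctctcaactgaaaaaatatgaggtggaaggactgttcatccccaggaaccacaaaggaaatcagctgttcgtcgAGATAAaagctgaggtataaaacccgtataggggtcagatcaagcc
Ms4a2, chr19:11623720-11623969, minus strand: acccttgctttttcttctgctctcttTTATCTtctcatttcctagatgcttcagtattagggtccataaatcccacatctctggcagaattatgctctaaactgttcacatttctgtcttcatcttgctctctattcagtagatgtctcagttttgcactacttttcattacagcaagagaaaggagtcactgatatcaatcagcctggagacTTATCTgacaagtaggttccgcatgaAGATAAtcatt
Fcer1a, chr1:173227230-173227479, minus strand: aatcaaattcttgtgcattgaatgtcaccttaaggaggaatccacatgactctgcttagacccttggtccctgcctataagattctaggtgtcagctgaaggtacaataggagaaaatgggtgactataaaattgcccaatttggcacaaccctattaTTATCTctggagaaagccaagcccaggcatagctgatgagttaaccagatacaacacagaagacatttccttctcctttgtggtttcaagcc

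The match before Cpa3 begins 46 bases from the start site, the one before Fcer1a 92 bases, and those before Ms4a2 224, 37 and 11 bases. The letters CANNTG, which helix-loop-helix factors such as MITF and TAL1 read, were found in 7 of the 10 entries and in 66.2% of all promoters, a like share. The narrower forms were CACATG or its complement CATGTG, found in 1 entry, that of Fcer1a (12.3% of all promoters), and CACGTG, found in 0 (6.02%). A match is a description of the letters, not of binding.

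In LSK cells, where all 6 listed members had lower means in KO than in WT, no member passed the threshold. Of 14598 genes tested 0 passed (0%) in the edgeR quasi-likelihood test. Anp32b, the targeted gene itself, did not pass (log2 fold change -1.76, SE 0.17, adjusted p = 0.148, edgeR). A member that did not pass is therefore not shown to be unchanged. At an unadjusted p under 0.05 there were 657 genes, Fcer1g among them, while DESeq2 called 15 and limma-voom 0, no member in either. With 2 libraries per group an exact permutation test of a single gene could not go below a two-sided p of 0.333. Cpa3 (GRCm38 chromosome 3, 20215620 to 20242181, minus strand) was read at 3.82 and 8.46 CPM in the KO libraries, against 11.1 and 10.02 CPM in the WT libraries, from 47 and 121 counts in KO and 169 and 105 in WT. Its log2 fold change came to -0.78 (SE 0.38) and a 95% interval from -1.67 to 0.12 (adjusted p = 0.986). Without the first KO library the value was -0.32, and without the second -1.46.

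Ms4a2 (chromosome 19, 11615523 to 11623719, minus strand) was read at 2.85 and 4.40 CPM in KO, against 5.90 and 6.58 CPM in WT, a log2 fold change of -0.78 (SE 0.36, adjusted p = 0.986, edgeR). Fcer1g (chromosome 1, 171229572 to 171234365, minus strand) was read at 27.5 and 29.5 CPM in KO, against 42.9 and 38.3 CPM in WT. It averaged 28.5 ± 1.42 CPM in KO and 40.6 ± 3.26 CPM in WT (SD, n = 2 each), a log2 fold change of -0.51 (SE 0.15, unadjusted p = 0.0113, adjusted p = 0.986, edgeR). In these 3 genes both KO libraries lay below both WT libraries, which held for 15.6% of all genes tested. The reverse, both KO libraries above both WT libraries, held for 0 members and 17.7% of all genes.

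The other 3 overlapped between the groups. Fcer1a (chromosome 1, 173221284 to 173227214, minus strand) was read at 1.30 and 2.03 CPM in KO, against 2.16 and 1.91 CPM in WT, from 16 to 33 counts per library, too few to show a difference of this size (log2 fold change -0.29, SE 0.49). Srgn (chromosome 10, 62493833 to 62527451, minus strand) was read at 853 and 939 CPM in KO, against 1250 and 802 CPM in WT (-0.20, SE 0.23). Without the first WT library its log2 fold change was 0.16. Without the second it was -0.48 and past the threshold (adjusted p = 0.0361, edgeR), with the lone WT library assumed to vary like the others, so the WT pair sets the direction. Mitf (chromosome 6, 97807052 to 98021349, plus strand) was read at 10.9 and 7.97 CPM in KO, against 12.6 and 9.92 CPM in WT (-0.26, SE 0.27).

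**Figure D3:**
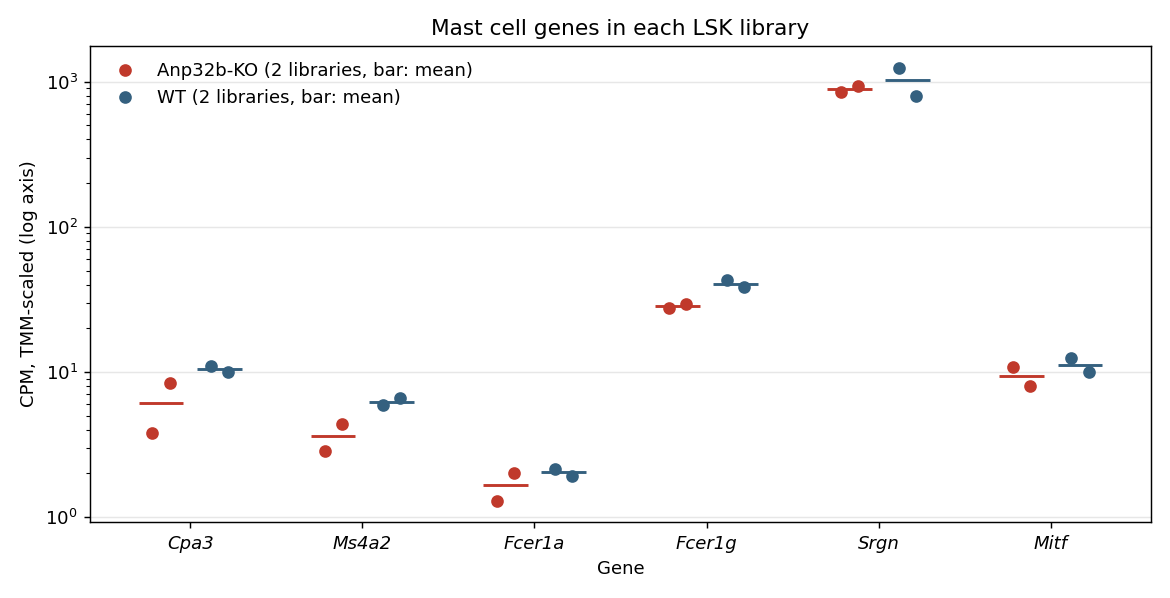
CPM (log y axis) of the 6 members listed in mouse (x axis), with each KO library (red, left) and each WT library (blue, right) as a point and the group mean as a bar. Cpa3, Ms4a2 and Fcer1g lie lower in both KO libraries, and the other 3 overlap.

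Divided by the bases of all annotated exons (GENCODE M21), the order of levels in LSK cells was Srgn, Fcer1g, Cpa3 and then Ms4a2, Fcer1a and Mitf, whose order was not the same in every library. Srgn ran from 388 to 428 CPM per kilobase in KO and from 365 to 569 in WT. Fcer1g ran from 31.5 to 33.7 in KO and from 43.8 to 49.1 in WT, and Cpa3 from 2.52 to 5.57 in KO and from 6.61 to 7.30 in WT. Ms4a2 (1.01 to 1.57 in KO, 2.10 to 2.34 in WT), Fcer1a (1.30 to 2.03 in KO, 1.91 to 2.17 in WT) and Mitf (1.29 to 1.76 in KO, 1.6 to 2.03 in WT) overlapped in KO, while in WT Ms4a2 lay above Mitf and overlapped Fcer1a, and Fcer1a overlapped Mitf. RefSeq annotates Tpsab1 as a transcribed pseudogene, while GENCODE M21 gives it as protein-coding.

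None of the same gene lists had a gene past the threshold in LSK cells in the fit of all 4 libraries. Some did when a WT library was left out, the mast cell marker list without the first WT library and other lists without the second. Of the 8 tested mast cell markers the median log2 fold change was -0.21, against -0.008 over all genes. Summed, the listed markers overlapped between the groups, at 987.7 to 1035 CPM in KO and 984.2 to 1237 CPM in WT. Kit, whose levels are given above, is on that list and overlapped too. Hdc was read at 28.1 and 36.3 CPM in KO, against 48.4 and 42.0 CPM in WT, and Gzmb, a granule protease of mouse mast cells and lymphocytes, at 1.87 and 1.12 CPM in KO, against 4.92 and 3.24 CPM in WT. Mcpt1, Mcpt2, Mrgprb1 and Mrgprb2, genes of mature mouse mast cells, have no row, and the chymase genes Cma1 and Mcpt4 held at most 12 counts in a library. The basophil proteases Mcpt8 (6.59 and 13.6 CPM in KO, 15.9 and 16.1 in WT) and Prss34 (8.70 and 17.3 in KO, 31.9 and 16.5 in WT) were lowest in the first KO library, as Cpa3 was. The 7 tested basophil markers had a median of 0.03. Summed, the listed basophil markers were lower in KO, at 133 to 133.6 CPM against 140.7 to 152.3 CPM in WT. Of the 7 tested relatives and partners of Fcer1g the median was -0.47, and the lectin receptors Clec5a and Clec4e stood at -0.69 and -0.60, neither past the threshold. The 12 neutrophil markers summed to 5734 and 7340 CPM in KO, against 7926 and 9653 CPM in WT, and the 9 tested lineage markers had a median of -0.64. The erythroid, megakaryocyte and LSK gate or stem cell markers had medians of 0.20, 0.24 and 0.13, and the transcription factors 0.06. The other lists, on receptor signalling, its restraint, sugar chains, proteases and degranulation, had medians from -0.12 to 0.05. The part of these lists in the lower member values was not tested.

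Set side by side, the log2 fold changes of the experiments had opposite signs for 5 of the 6 shared genes. In 3 of these the libraries of both groups were separated in both experiments. Of all genes tested, 29.5% were separated with shANP32B higher in KU812 cells, and 15.6% with KO lower in LSK cells. CPA3 stood at 1.06 in KU812 cells with ANP32B knocked down and Cpa3 at -0.78 in KO LSK cells, MS4A2 at 0.43 and Ms4a2 at -0.78, and FCER1G at 0.42 and Fcer1g at -0.51. The groups overlapped in at least 1 experiment for FCER1A at 0.24 and Fcer1a at -0.29, and for MITF at 0.11 and Mitf at -0.26. SRGN and Srgn were both negative, at -1.88 and -0.20. The experiments differ in species, cell type and way of losing ANP32B, and the difference between them was not tested.

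**Figure D4:**
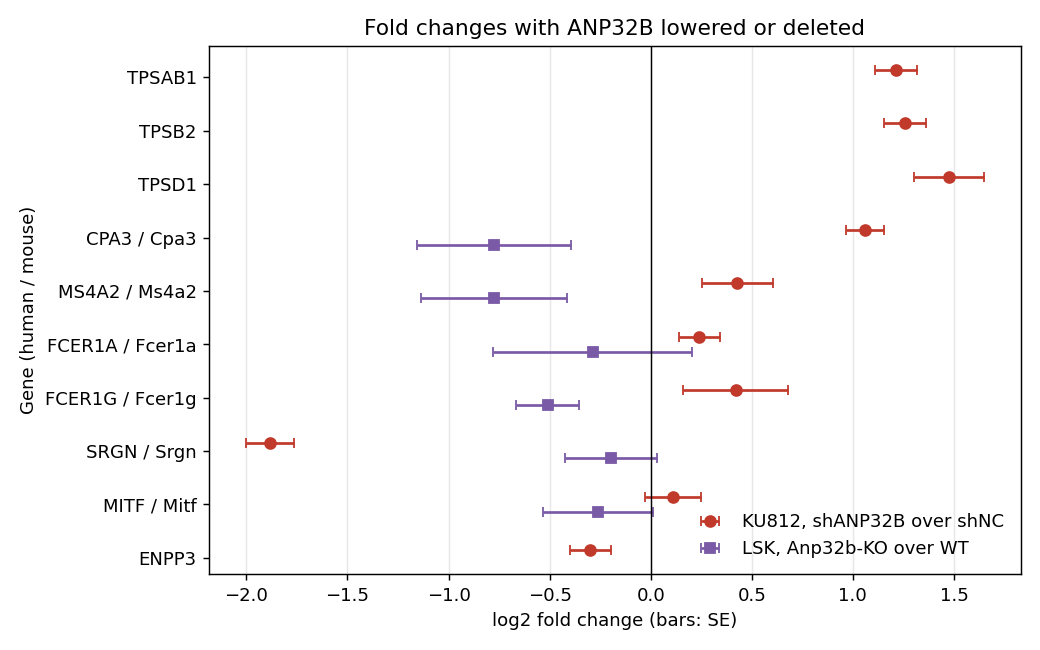
Log2 fold change (x axis, bars: SE) of each member (rows) in KU812 cells (red circles, shANP32B over shNC) and LSK cells (purple squares, KO over WT). The tryptases and CPA3 lie above 1 in KU812 cells, SRGN lies at -1.88, and all LSK values lie below 0.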

How the data were processed

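The authors deposited 1 table per library of whole-number read counts per gene symbol, not normalized, as the values show. HISAT2, TopHat, Cufflinks and DESeq are listed, with the builds GRCm38 and GRCh38 and no roles or versions, per the submitters' processing notes. The counter, its strand setting and how it treated shared reads are not stated in these sources, so near-identical, overlapping and antisense genes are uncertain. Total RNA was extracted with Trizol, per the labels' protocols.

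KU812 and LSK tables were fitted apart in R 4.3.3 with edgeR 4.0.16 (filterByExpr, TMM scaling, quasi-likelihood test, Benjamini-Hochberg adjustment over all genes tested, threshold 0.05). CPM use TMM-scaled totals, the log2 fold changes are edgeR's, and the SE is the unmoderated coefficient over the square root of F. Members and gene lists were chosen with earlier results of these data known, and the genes named were all members, the targeted gene, at most 4 genes per list with the smallest p in KU812 and 2 in LSK cells, and KIT, GATA2, HDC, CTSC, NDST2, LYN, SYK and BTK. TPSG1, TFE3, GATA1, Mcpt8, Cma1, Mcpt4, Ly6a and Flt3 fall outside that rule and were chosen after their values were seen. Replicates of a group differed by more than sampling noise (chi-square per degree of freedom 7.70 to 47.7). The alternatives were other scalings, no filter, DESeq2 1.42.0, limma-voom (limma 3.58.1), a replicate block and leaving out each library; counting list genes under each was added after seeing the data. The test was tried on simulated data first. The floor of 3 counts covers counting error only.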

Additional observations from a re-analysis of the deposited data

Results flagged for a closer look

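CPA3 had a log2 fold change of 1.06 in KU812 cells, with both shANP32B libraries above both shNC libraries, while Cpa3 had -0.78 in LSK cells, with both KO libraries below both WT libraries. MS4A2 likewise had 0.43 in KU812 cells and Ms4a2 -0.78 in LSK cells. FCER1G had 0.42 in KU812 cells and Fcer1g -0.51 in LSK cells. These 3 pairs were flagged because the groups did not overlap in either experiment and the signs were opposite. Both shANP32B libraries lay above both shNC libraries for 29.5% of all KU812 genes tested. Both KO libraries lay below both WT libraries for 15.6% of all LSK genes tested. The differences were not tested, the KU812 values were known when the genes were picked, and only the CPA3 value passed a threshold (edgeR).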

How the results depend on the processing

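The KU812 members were picked on these libraries, so their calls under other settings are a description and no sign of stability. Calls of ENPP3, FCER1A or MS4A2 were added 9 times, 3 of them with an shNC library left out and 6 under other settings. Genes past the threshold in KU812 cells, 2741 in all, ran from 1413 (without the second shANP32B library) to 4047 (without the second shNC library), and the members from 5 to 7. With the replicate number as a block there were 4164 genes and 8 members in KU812 cells, and 15 genes and 0 members in LSK cells. Same-numbered libraries correlated at 0.12 and -0.07 in their deviations, and only 2 pairs exist per experiment, so the numbers were not taken to pair the libraries. Summing the tryptases left 3 of 8 features called. Scaled by library totals only, KU812 calls were 1474 higher and 1182 lower, against 1244 and 1497, and the median log2 fold change of all genes moved by 0.06. In LSK cells DESeq2 called 15 genes, and with 1 library left out the count ran from 0 to 830, with 36 without the first WT library and 830 without the second, and the members from 0 to 1. Srgn in LSK cells turned to 0.156 without the first WT library and was -0.484 without the second. The tryptase sum ran from 1.20 to 1.31. Depth limits Fcer1a and FCER1G, with 16 to 33 and 147 to 219 counts per library. The causes of these changes were not tested.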
